A study of Mus musculus with 10 samples.

Results

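Of the 10 libraries of a ribosome profiling study, 4 are compared here, 2 labelled Drosha knockout and 2 labelled Ago1&Ago2 double knockout. They were chosen by genotype alone, and all 11011 genes of the deposited count table entered the comparison, of which 10978 passed the filter on low counts. All 10 libraries came from the mouse embryonic stem cell line E14, of 129/Ola background and blastocyst origin, grown with serum and the cytokine LIF and given cycloheximide, which stalls ribosomes, just before harvest. The other libraries are 2 each from wild type (WT), Dicer knockout and Dgcr8 knockout, and ribosome profiling reads the mRNA stretches that ribosomes cover, so a footprint count moves with mRNA amount as well as with translation. The Drosha libraries and the Ago libraries, as they are called below, share the line, strain and treatment and differ in the labelled genotype. No label says how the alleles were made, whether a group is 1 clone, or whether its libraries came from separate cultures, and p-values therefore reflect only how far these samples scatter, which may be technical.

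Drosha and Dgcr8 form the Microprocessor, which cuts primary microRNA (miRNA) transcripts in the nucleus. Dicer then cuts the hairpins to mature miRNAs, and an Argonaute protein such as Ago1 or Ago2 holds the miRNA and pairs its seed with sites in mRNA 3' UTRs, lowering their stability and translation. Losing Drosha removes most miRNAs but not those made by other routes, while losing Argonautes removes proteins through which miRNAs of any route act. The comparison asks which footprints differ between a block at the first step of the pathway and a loss of its effectors.

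The miRNAs below are shown because they stand for the routes that separate the pair of genotypes. The first pair belong to clusters known from embryonic stem cells and share a seed, the next 3 belong to the widely expressed miR-17 cluster, and let-7a is a miRNA of differentiated cells. miR-484 and miR-877 are known to be made without Drosha, miR-877 from a spliced intron. Capitals mark the seed, bases 2 to 8, in the RefSeq sequences of GRCm38.p6, 5' to 3'.
miR-294-3p: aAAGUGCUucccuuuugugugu
miR-302d-3p: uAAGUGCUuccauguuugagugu
miR-17-5p: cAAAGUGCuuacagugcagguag
miR-92a-3p: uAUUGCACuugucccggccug
miR-19b-3p: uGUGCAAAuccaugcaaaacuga
let-7a-5p: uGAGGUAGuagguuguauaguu
miR-484: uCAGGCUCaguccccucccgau
miR-877-5p: gUAGAGGAgauggcgcaggg
In GRCm38.p6, miR-294-3p lies at chr7:3220691-3220712 and miR-302d-3p at chr3:127545665-127545687, both on the plus strand. miR-484 lies at chr16:14159630-14159651 on the plus strand and miR-877-5p at chr17:35960795-35960814 on the minus strand.

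The Drosha libraries were shallow, with total counts of 1854243 and 2230566, and the Ago libraries deep, with 14064896 and 35168638. The shallower Ago library held 6.31 times the counts of the deeper Drosha library, so depth and genotype cannot be told apart by design. A floor of 3 counts corresponded to 1.62 and 1.34 CPM (counts per 1e6 counts of a library) in the Drosha libraries and to 0.213 and 0.0853 CPM in the Ago libraries. The first Drosha and first Ago library resembled each other (Pearson r of log2 CPM across genes 0.946) more than either resembled its own replicate (0.896 for Drosha, 0.928 for Ago). Over the 7260 genes with at least 20 CPM in the higher knockout, the median absolute log2 difference between single libraries was 0.43 within Drosha and 0.39 within Ago. Between a Drosha and an Ago library it was 0.27 for both first libraries, and 0.40 to 0.46 for the other 3 pairs.

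In the comparison of the Drosha with the Ago libraries, footprints of 5 genes differed, and 2 of these are targeted genes. Ago2, Anxa3 and Parva were higher in the Drosha libraries, and Drosha and Ctcfl were higher in the Ago libraries. These 5 of 10978 genes (0.0455%) passed edgeR's quasi-likelihood test at a Benjamini-Hochberg adjusted p under 0.05, with 3 higher in Drosha (0.0273%) and 2 lower (0.0182%). An unadjusted p under 0.05 was reached by 1015 genes (9.25%), of which 473 were higher in the Drosha libraries (4.31%) and 542 in the Ago libraries (4.94%). Against WT, by the same test, 378 genes differed in the Drosha libraries (3.44%) and 316 in the Ago libraries (2.88%), and both of these comparisons share the WT libraries. Those counts came to 9 and 18 without the first WT library and to 1 and 3 without the second, so the calls against WT given for single genes below rest on both WT libraries. Leaving out either Drosha or either Dicer library gave 159 to 237 calls for Drosha, and leaving out either Ago library gave 154 and 194 for Ago. Of the tested genes, 1724 had both Drosha libraries above both Ago libraries (15.7%) and 1834 had the reverse (16.7%). The number of calls rested on single libraries: it was 2 without the second Drosha library, 2 without the second Ago library, 10 without the first Drosha library and 53 without the first Ago library. Scaled by total counts alone, 7 genes were called, 3 higher and 4 lower in the Drosha libraries. DESeq2 called 142 genes (1.29% of 11011), among them the 5, and limma-voom called 2. A fit to the Drosha and Ago libraries alone called 4. With every library thinned to the smallest total, 10 genes were called, again among them the 5.

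**Figure D1:**
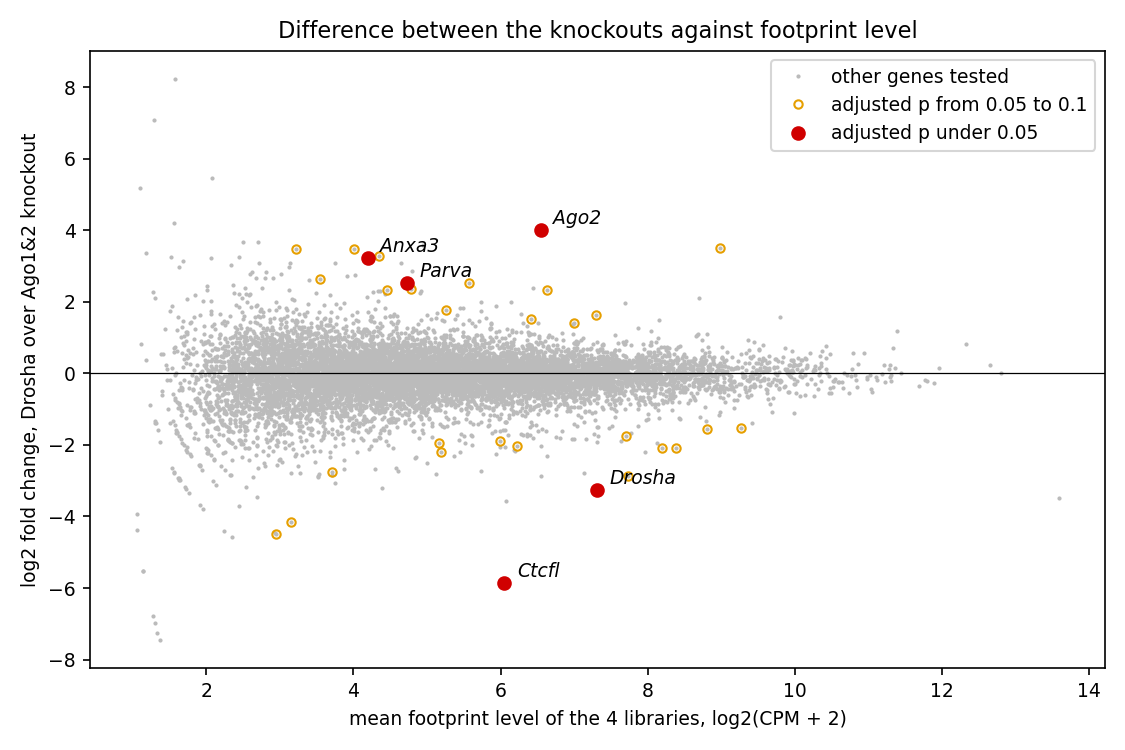
Each point is 1 of the 10978 tested genes, placed by its mean level in the 4 libraries (log2 of CPM plus 2) and its fitted log2 fold change, Drosha over Ago. The 5 called genes are red and named, the 26 genes with an adjusted p between 0.05 and 0.1 are open orange circles, and most points lie near 0, with a median of -0.04.

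The targeted genes were read first. Drosha (ENSMUSG00000022191, chromosome 15, 12824815 to 12935291, plus strand, GRCm38) gave 24.3 and 34.5 CPM in the Drosha libraries, 255 and 313 CPM in the Ago libraries and 177 and 178 CPM in WT. The Drosha libraries lay far below the others and the Ago libraries lay above WT, with no overlap between any of the 3 groups. The log2 fold change of Drosha over Ago was -3.27 (SE 0.33, edgeR quasi-likelihood test, Benjamini-Hochberg adjusted p = 0.0031). Ago2 (ENSMUSG00000036698, chromosome 15, 73095844 to 73184935, minus strand), the Argonaute able to slice its target, mirrored this, at 143 and 202 CPM in the Drosha libraries, 14.9 and 6.61 CPM in the Ago libraries and 81.9 CPM in both WT libraries. Its Drosha libraries lay above WT and its Ago libraries far below. The difference was log2 4.02 (SE 0.40, edgeR adjusted p = 0.0031). These calls on Drosha and Ago2 held in 21 of 21 alternative analyses, with a highest adjusted p of 0.044 and 0.027. Both genes lie on chromosome 15, whose genes had a median log2 of 0.38 in Drosha and 0.48 in Ago against WT, and the part of this shift in their levels above WT was not tested.

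Ago1, the other targeted Argonaute, was not low in the libraries labelled for it. It gave 72.8 and 60.7 CPM in the Drosha libraries and 27.0 and 10.7 CPM in the Ago libraries, against 14.7 and 14.3 CPM in WT. The Drosha libraries lay above all 4 others, and the Ago libraries fell on both sides of WT (Drosha over Ago log2 1.83, SE 0.42, edgeR adjusted p = 0.15). The labels do not say which exons were removed, so footprints on the rest of the gene are no check of the allele. Dgcr8, whose own mRNA holds hairpins that the Microprocessor cuts, gave 169 and 197 CPM in the Drosha libraries, 74.6 and 63.5 CPM in the Ago libraries and 32.7 and 33.1 CPM in WT. The groups were ordered Drosha, Ago and WT without overlap, but the difference between the knockouts missed the threshold (log2 1.41, SE 0.26, edgeR adjusted p = 0.078). Against WT Dgcr8 rose in both, by log2 2.48 in the Drosha libraries (edgeR adjusted p = 0.0028) and by log2 1.07 in the Ago libraries (adjusted p = 0.047). Dicer1 gave 74.4 and 169 CPM in the Drosha libraries and 129 and 144 CPM in the Ago libraries, which overlap.

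**Figure D2:**
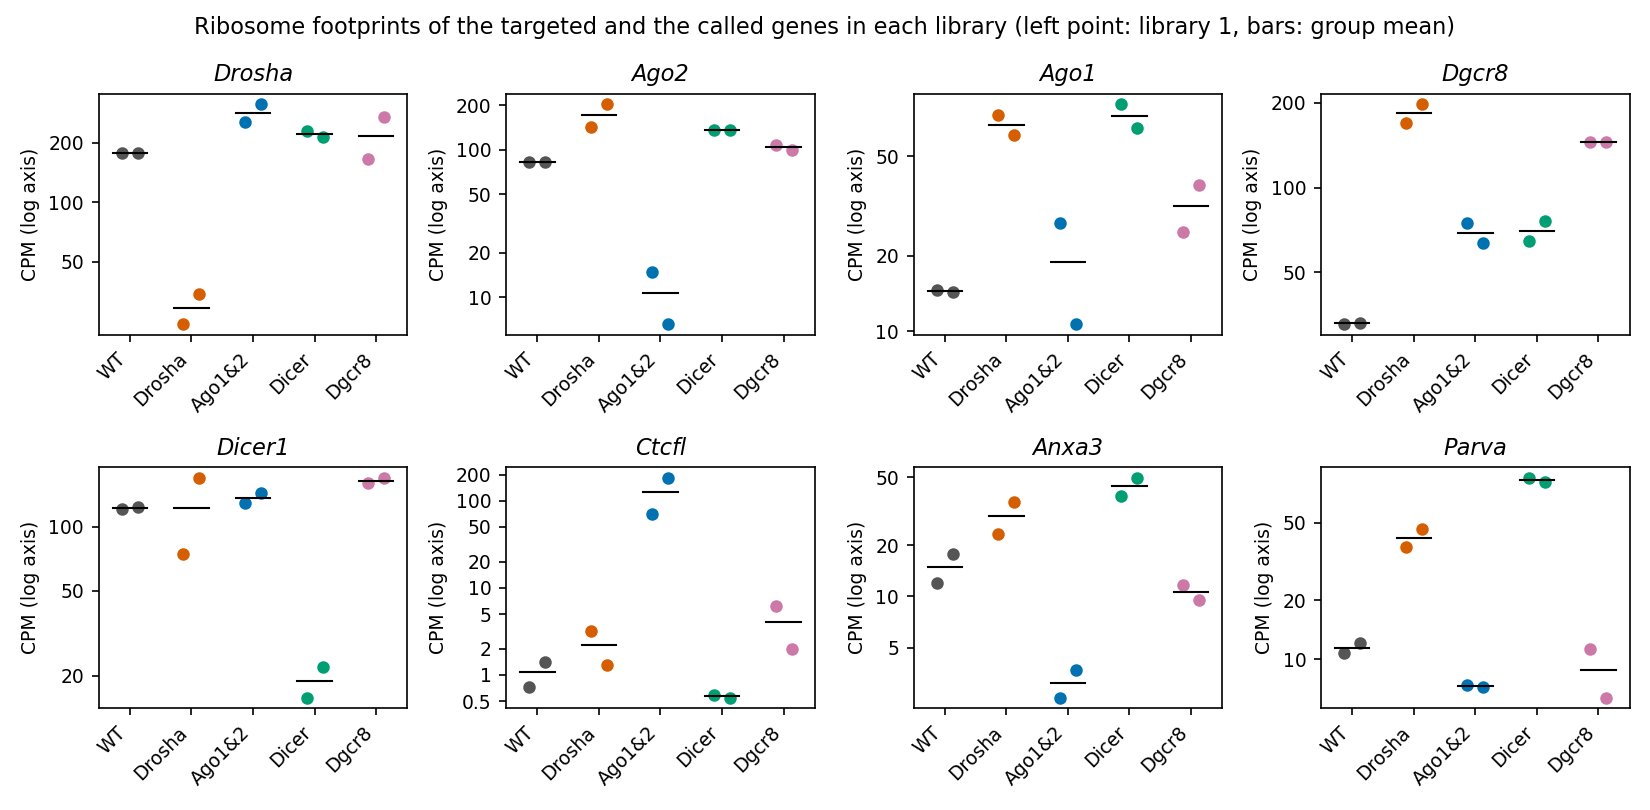
Footprint level in CPM on a log axis of the 5 targeted genes and the other 3 called genes in each of the 10 libraries, grouped by genotype, with bars at group means. Drosha libraries stand lowest for Drosha and Ago libraries lowest for Ago2 and Anxa3, Ctcfl exceeds 69 CPM in the Ago libraries alone and stays under 7 CPM in all 8 others, and Parva and Anxa3 are also high in the Dicer libraries.

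Ctcfl had the largest fold of the 5 called genes. Ctcfl (ENSMUSG00000070495, chromosome 2, 173093609 to 173119525, minus strand) encodes BORIS, a paralog of the insulator protein CTCF normally found in male germ cells. It gave 3.17 and 1.31 CPM in the Drosha libraries, from 6 and 3 counts, the latter at the floor, and 70.0 and 183 CPM in the Ago libraries. WT had 0.738 and 1.41 CPM, Dicer 0.593 and 0.552 CPM, and the libraries labelled Dgcr8 knockout 6.13 and 1.99 CPM. The Ago libraries stood above all 8 others, and the Drosha libraries overlapped WT. The difference was log2 -5.86 (SE 0.73, edgeR adjusted p = 0.014). It missed the threshold without the second Ago library (log2 -4.999, adjusted p = 0.13), without the first Drosha library (log2 -6.59, adjusted p = 0.068) and without the second (log2 -5.34, adjusted p = 0.26), and with limma-voom (adjusted p = 0.26).

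Anxa3 and Parva were low in the Ago libraries and high in the Drosha libraries. Anxa3 (ENSMUSG00000029484, chromosome 5, 96793339 to 96845966, plus strand), a calcium-dependent membrane-binding annexin, gave 23.2 and 35.8 CPM in the Drosha libraries, 2.55 and 3.67 CPM in the Ago libraries and 12.0 and 17.8 CPM in WT. The Drosha libraries lay above WT and the Ago libraries below (log2 3.23, SE 0.41, edgeR adjusted p = 0.014). Against WT, the Ago libraries passed the test for Anxa3 (log2 -2.25, edgeR adjusted p = 0.016) and the Drosha libraries did not (log2 0.99, adjusted p = 0.18). The call was lost without the second Drosha library (log2 2.87, adjusted p = 0.14) or the second Ago library (log2 3.54, adjusted p = 0.13), in the fit to the Drosha and Ago libraries alone (log2 3.21, adjusted p = 0.065) and with limma-voom (log2 3.18, adjusted p = 0.052).

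Parva (ENSMUSG00000030770, chromosome 7, 112427505 to 112591692, plus strand) encodes alpha-parvin, an actin-binding adaptor at integrin adhesions. It gave 37.5 and 46.3 CPM in the Drosha libraries, 7.43 and 7.20 CPM in the Ago libraries and 10.8 and 12.1 CPM in WT. Replicates of Parva were close, and the 3 groups did not overlap (Drosha over Ago log2 2.52, SE 0.34, edgeR adjusted p = 0.022). Dicer libraries had 84.4 and 80.5 CPM, above the Drosha libraries. Leaving out any 1 of 6 libraries ended this call: both WT, both Dicer, the second Drosha and the second Ago library, with log2 values from 2.35 to 2.52 and adjusted p from 0.054 to 0.22. It was also lost in the fit to the Drosha and Ago libraries alone (log2 2.50, adjusted p = 0.088) and with limma-voom (log2 2.53, adjusted p = 0.052).

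Exons of 4 called genes overlap another annotated gene, and the strand setting of the counting is not given in the sources used here. Ago2 overlaps Chrac1 and Ctcfl overlaps the antisense gene Ctcflos, both on the opposite strand, while Anxa3 overlaps Gm42603 and Drosha the miRNA gene Gm47288 on the same strand. The targeted gene Dgcr8, not called between the knockouts, overlaps the protein-coding gene Gm49776 on the same strand and Trmt2a on the opposite strand. Within the overlapping stretches, reads of the same-strand pairs cannot be told apart. Whether reads of the opposite-strand pairs were kept apart in the counting is not known.

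A further 26 genes had an adjusted p between 0.057 and 0.089, 13 higher in each knockout, and are given as values without a call. All 31 genes under 0.1 (0.282% of those tested) were called by DESeq2. Chromosome X carried 5 of the 31, of 358 X-linked genes tested. Among the genes higher in the Drosha libraries was Klhl13, an adaptor of a ubiquitin ligase used in cell division, which lies on chromosome X. It gave 733 and 1121 CPM in the Drosha libraries, 129 and 34.1 CPM in the Ago libraries and 104 and 49.8 CPM in WT. The Ago libraries straddled WT and the Drosha libraries stood well above both (Drosha over Ago log2 3.51, SE 0.63, edgeR adjusted p = 0.077). Against WT, Klhl13 rose in the Drosha libraries (log2 3.59, edgeR adjusted p = 0.017). Ptpn14, a phosphatase that restrains Yap, had 67.5 and 87.8 CPM in the Drosha libraries, 20.02 and 7.02 CPM in the Ago libraries and 39.5 and 56.5 CPM in WT. Here it was the Ago libraries that passed the test against WT (log2 -1.84, edgeR adjusted p = 0.044). Ctc1, of the complex that caps telomere ends, had 197 and 276 CPM in the Drosha libraries, 71.5 and 79.9 CPM in the Ago libraries and 131 and 161 CPM in WT.

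On the opposite side, 2 neuronal genes had the smallest p short of the threshold. The adhesion molecule Ncam1 gave 58.6 and 42.8 CPM in the Drosha libraries, 367 and 377 CPM in the Ago libraries and 163 and 82.2 CPM in WT. WT lay between the knockouts (log2 -2.88, SE 0.45, edgeR adjusted p = 0.057). Stmn2, a microtubule regulator, gave 96.0 and 125 CPM in the Drosha libraries, 473 and 468 CPM in the Ago libraries and 553 and 491 CPM in WT. For Stmn2 the Ago libraries were near WT, and the Drosha libraries fell against WT (log2 -2.24, edgeR adjusted p = 0.011). Tet1, which oxidises 5-methylcytosine, went the other way round, with 257 and 196 CPM in Drosha, 805 and 534 CPM in Ago and 278 and 240 CPM in WT. Its Drosha libraries overlapped WT, and it rose in the Ago libraries against WT (log2 1.37, edgeR adjusted p = 0.032). The integrin chain Itgb7 likewise rose against WT in the Ago libraries (log2 2.73, adjusted p = 0.0098), with 555 and 519 CPM against 157 and 98.3 CPM in Drosha and 101 and 61.9 CPM in WT. The receptor tyrosine kinase gene Kit gave 374 and 262 CPM in Drosha, 827 and 1009 CPM in Ago and 589 and 577 CPM in WT. The genes Acsm4 and Hist1h1t had 2 and 3 counts in all in the Drosha libraries, too few for a fold.

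**Figure D3:**
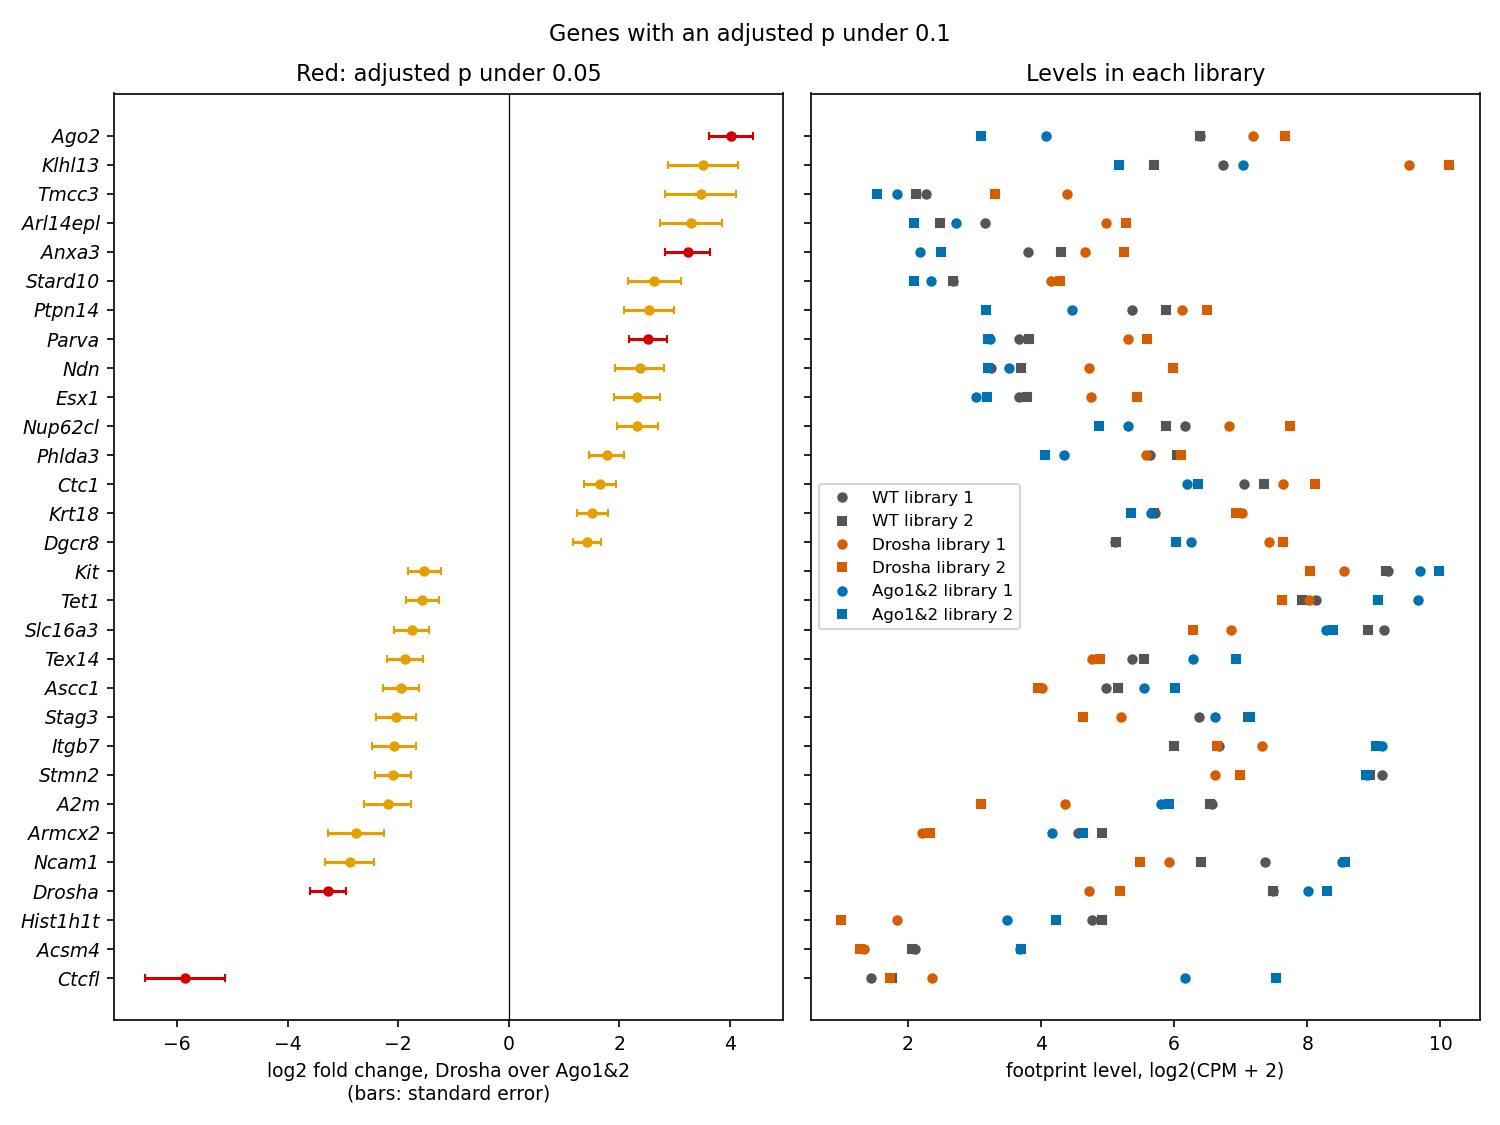
The 30 genes with an adjusted p under 0.1, leaving out 1 predicted gene. Left, fitted log2 fold change of Drosha over Ago with its standard error, red where called and left blank where a group had 3 counts or fewer; right, the level of each gene in the single WT, Drosha and Ago libraries as log2 of CPM plus 2, where no gene's Drosha and Ago libraries overlap.

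The silencing machinery, with the targeted Ago1 and Ago2 among its 34 Argonaute, TNRC6, deadenylase and decapping genes, had 1 call (Ago2). Both Drosha libraries stood above both Ago libraries for 12 (35.3%) and the reverse held for 4 (11.8%), beside 15.7% and 16.7% of all genes tested. The 12 include Ago1 and Ago2, the genes targeted in the Ago libraries, so this share is not independent of the genotypes compared. The median log2 difference was 0.03, beside -0.04 over all genes tested, and -0.03 to 0.17 with 1 of the 4 libraries left out. Cnot7, a deadenylase of the CCR4-NOT complex, gave 32.7 and 30.6 CPM in Drosha and 18.7 and 10.1 CPM in Ago, and was 19.8 and 21.9 CPM in WT. Tnrc6b, a scaffold that Argonautes bind, stood at 147 and 122 CPM in Drosha and 154 and 149 CPM in Ago, both above the 47.0 and 41.7 CPM of WT. Among 21 miRNA biogenesis genes, Drosha was the only call. For 1 gene (Dgcr8, 4.76%) the Drosha libraries were on top. The Ago libraries were on top for 6 (28.6%), which include Drosha, the gene targeted in the Drosha libraries. The list's median was -0.16, and -0.02 to -0.41 with 1 of the 4 libraries left out. The RNA-binding protein gene Lin28a, a blocker of let-7 maturation, gave 14.2 and 22.3 CPM in Drosha and 49.1 and 32.7 CPM in Ago, both under the 71.7 and 98.1 CPM of WT.

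No gene list was tested as a set. Below, a group is on top where both its libraries exceed both of the other, and the shares on top are to be read beside 15.7% of all genes tested for Drosha and 16.7% for Ago, and medians beside -0.04. Of the 24 p53 targets tested, 0 were called, 12 had Drosha on top (50%) and 2 had Ago (8.33%), with a median log2 difference of 0.48. Phlda3, an inhibitor of Akt, gave 45.9 and 66.4 CPM in Drosha and 18.3 and 14.7 CPM in Ago, with WT at 47.6 and 64.3 CPM. WT thus lay with the Drosha libraries, and Phlda3 fell in the Ago libraries against WT (log2 -1.77, edgeR adjusted p = 0.017). The kinase gene Plk2 gave 35.9 and 62.0 CPM in Drosha, 23.1 and 10.5 CPM in Ago and 56.9 and 70.4 CPM in WT, and also fell in Ago against WT (log2 -1.93, edgeR adjusted p = 0.045). The cell-cycle inhibitor Cdkn1a ran the other way, with 42.7 and 39.3 CPM in Drosha and 45.8 and 79.1 CPM in Ago. Against WT the list's median was 0.05 and 0.32 in the Drosha libraries and 0.06 and -0.49 in the Ago libraries, and the median between the knockouts was 0.43 without the second Ago library and 0.76 without the first.

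Actin cytoskeleton and adhesion genes had 1 call, Parva, of 36 tested. The Drosha libraries were on top for 15 (41.7%) and the Ago libraries for 1 (2.78%), and the median log2 difference was 0.39. Cald1, which binds actin and tropomyosin, gave 148 and 131 CPM in Drosha, 73.5 and 69.9 CPM in Ago and 37.8 and 41.4 CPM in WT. Both knockouts lay above WT and Drosha above Ago. The tropomyosin gene Tpm1 showed the same order, with 163 and 128 CPM, 79.0 and 103 CPM, and 74.0 and 66.2 CPM. Talin, Tln1, gave 424 and 643 CPM in Drosha, 393 and 361 CPM in Ago and 319 and 405 CPM in WT. With 1 of the 4 libraries left out the list's median was 0.25 to 0.60, the highest without the first Ago library.

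The keratin genes Krt8 and Krt18 had higher levels in both Drosha libraries than in both Ago libraries, without a call. They belong to a list of trophectoderm and simple epithelium genes that also holds genes other than keratins. Of the 12 list members tested, 6 had the Drosha libraries on top (50%) and 0 the Ago libraries. The list's median was 0.29. It was 0.78 and 0.52 without the first and second Ago library and 0.58 without the second Drosha library. Krt18 gave 128 and 119 CPM in Drosha, 48.1 and 38.9 CPM in Ago and 50.3 and 49.8 CPM in WT, and its partner Krt8 gave 88.6 and 71.6 CPM, 29.6 and 24.8 CPM, and 26.8 and 36.5 CPM. For both, the Ago libraries were at or near WT. Krt18 differed between the knockouts by log2 1.51 (SE 0.28, edgeR adjusted p = 0.082) and Krt8 by 1.56 (SE 0.34, adjusted p = 0.12), and Krt18 rose in Drosha against WT (log2 1.31, edgeR adjusted p = 0.031). The 24 epithelial and mesenchymal markers had 0 calls, 5 genes with Drosha on top (20.8%) and 0 with Ago, and a median of 0.31 that came to 0.02 without the first Drosha library. Among them the surface protein gene Msln stood at 350 and 154 CPM in Drosha and 150 and 89.8 CPM in Ago, far above 4.43 and 4.11 CPM in WT. The summed trophectoderm list was 964 and 595 CPM in Drosha, 651 and 489 CPM in Ago and 579 and 617 CPM in WT, so the libraries overlapped.

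Imprinted genes, expressed from 1 parental allele, had 0 calls of 19, with 8 higher in both Drosha libraries (42.1%) and 1 in both Ago libraries (5.26%). Their median was 0.30. It was 0.55 and 0.25 without the first and second Ago library, and 0.45 and 0.51 without the first and second Drosha library. Mest gave 40.1 and 66.0 CPM in Drosha, 8.77 and 0.474 CPM in Ago and 71.9 and 43.0 CPM in WT. The Ago libraries were low and far apart (Drosha over Ago log2 3.60, SE 0.91, edgeR adjusted p = 0.21). Peg10 and Sgce, neighbours transcribed in opposite directions, gave 406 and 937 CPM and 33.8 and 17.0 CPM in Drosha, and 231 and 81.2 CPM and 11.3 and 7.29 CPM in Ago. Ndn, of the Prader-Willi region, was 24.3 and 61.2 CPM in Drosha and 9.48 and 7.23 CPM in Ago, with WT at 7.47 and 11.03 CPM, and it rose in Drosha against WT (log2 2.20, edgeR adjusted p = 0.024). Peg3 was the member with the Ago libraries on top, 76.0 and 65.1 CPM against 142 and 108 CPM.

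Of 26 FGF and ERK pathway genes, 0 were called, and the list had 8 members with Drosha on top (30.8%) and 5 with Ago (19.2%). The median of 0.32 was 0.07 to 0.65 with 1 library left out, lowest without the second Ago library and highest without the first. Feedback inhibitors of the pathway were among the 8: Dusp6 gave 51.7 and 98.3 CPM in Drosha and 45.3 and 29.0 CPM in Ago, and Dusp4 4.22 and 11.8 CPM against 3.61 and 1.30 CPM. WT was above both knockouts for Dusp4, at 24.6 and 39.4 CPM.

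Germline genes include the called Ctcfl. Of 20 tested it was the 1 call, and 7 had the Ago libraries on top (35%) and 2 the Drosha libraries (10%), with a median log2 difference of -0.42 that came to -0.07 without the second Ago library. Stag3, a meiotic cohesin subunit, gave 34.8 and 22.7 CPM in Drosha, 95.9 and 139 CPM in Ago and 80.8 and 136 CPM in WT, and fell in Drosha against WT (log2 -1.92, edgeR adjusted p = 0.019). Piwil2, a germline member of the wider Argonaute family, gave 38.0 and 35.8 CPM in Drosha, 67.3 and 99.5 CPM in Ago and 39.3 and 50.7 CPM in WT. Stra8, which starts meiosis, was 123 and 164 CPM in Drosha and 204 and 509 CPM in Ago, above 76.9 and 51.4 CPM in WT in both. Rhox5, on chromosome X, ran against the list at 116 and 534 CPM in Drosha and 83.5 and 82.8 CPM in Ago.

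Markers of other cell types a stem cell culture can hold were read beside these lists. The summed level of 11 neural markers was 348 and 432 CPM in Drosha, 1172 and 1114 CPM in Ago and 897 and 746 CPM in WT, with Ncam1 and Stmn2 the highest members in the Ago libraries, and 1 member had the Drosha libraries on top and 3 the Ago libraries. Crmp1 was the third, at 22.2 and 31.9 CPM in Drosha and 82.3 and 62.2 CPM in Ago. These shares were 9.09% for Drosha and 27.3% for Ago. The list's median log2 difference was -0.24, and 0.01 to -1.01 with 1 of the 4 libraries left out, nearest 0 without the first Ago library. Its median against WT was -0.63 and 0.54 in the Drosha libraries and 0.47 and 0.64 in the Ago libraries. The 10 fibroblast markers had 0 genes with Drosha on top and 4 with Ago (40%), with a median of -0.53 that turned to 0.08 without the first Ago library, and their sum, led by Fn1, overlapped, at 9722 and 6277 CPM in Drosha and 8475 and 5743 CPM in Ago. The 11 primitive endoderm regulators were far under WT in both, with sums of 684 and 547 CPM in Drosha, 680 and 366 CPM in Ago and 3088 and 2828 CPM in WT. Lrp2 made up most of that sum in the knockouts, and Gata6 and Sox17 were at or under 4.37 CPM in all 4 libraries. Between the knockouts the list's median log2 was 0.84, and 0.25 to 1.14 with 1 of the 4 libraries left out. Drosha was on top for 2 members (18.2%) and Ago for 1 (9.09%), and 2 members had 3 counts or fewer in a knockout. The pluripotency factors Pou5f1 (696 and 920 CPM in Drosha, 714 and 816 CPM in Ago), Nanog (592 and 667 CPM, 494 and 633 CPM) and Sox2 (368 and 363 CPM, 364 and 295 CPM) overlapped between the knockouts. Fewer cells of a type and less RNA per cell cannot be told apart in such bulk libraries, and the part of other cell types in the differences above was not tested.

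Metabolic and stress lists had 0 calls. Of 25 glycolysis genes, 2 had Drosha on top (8%) and 8 had Ago (32%), with a median of -0.35, or -0.22 without the second Ago library and -0.63 without the second Drosha library. The lactate exporter gene Slc16a3 gave 114 and 75.6 CPM in Drosha, 308 and 332 CPM in Ago and 569 and 481 CPM in WT, and fell in Drosha against WT (log2 -2.47, edgeR adjusted p = 0.0093). Of 26 cholesterol synthesis genes, 1 had Drosha on top (3.85%) and 9 had Ago (34.6%), with a median of -0.39 that was -0.18 without the first Ago library and -0.64 without the first Drosha library. Srebf1, a regulator of lipid synthesis genes, gave 217 and 135 CPM in Drosha and 353 and 282 CPM in Ago. WT had 260 and 267 CPM for Srebf1. Of 30 oxidative phosphorylation genes, 4 had Drosha on top (13.3%) and 2 had Ago (6.67%), with a median of 0.08 that was -0.04 without the first Ago library. Of 206 solute carriers, 15 had Drosha on top (7.28%) and 45 had Ago (21.8%), with a median of -0.32 that was 0.05 without the first Ago library and -0.07 without the second Drosha library. Of 38 genes of the integrated stress response, 2 had Drosha on top (5.26%) and 7 had Ago (18.4%, near the share over all genes). Their median was -0.35, and -0.07 to -0.60 with 1 library left out, nearest 0 without the first Ago library. Ddit3, its transcription factor CHOP, gave 3.69 and 5.24 CPM in Drosha, 16.7 and 9.66 CPM in Ago and 11.7 and 16.8 CPM in WT.

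Ribosomal protein and histone footprints set the second Ago library apart. The 81 cytosolic ribosomal protein genes had a median of -0.74 between Drosha and Ago, with 2 genes on top in Drosha (2.47%) and 22 in Ago (27.2%) and 0 called. Their summed level was 14232 and 15182 CPM in the Drosha libraries, 13495 CPM in the first Ago library and 25444 CPM in the second. By this sum the first Ago library was under both Drosha libraries. By the members' median log2 against WT it was above them, at -0.08 beside -0.18 and -0.26, and the second Ago library was at 0.94. Without the second Ago library the median between the knockouts was -0.03. Of 18 replication histones, 0 had Drosha on top and 11 had Ago (61.1%), with 0 called. Their sums were 5573 and 5821 CPM in Drosha and 6308 and 11642 CPM in Ago, with a median of -0.99 that came to -0.16 without the second Ago library. Genes of the shortest coding length (the shortest 5%, up to 420 bases) also set the second Ago library apart. Their median log2 against WT was -0.33 and -0.47 in Drosha and -0.40 and 0.15 in Ago.

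**Figure D4:**
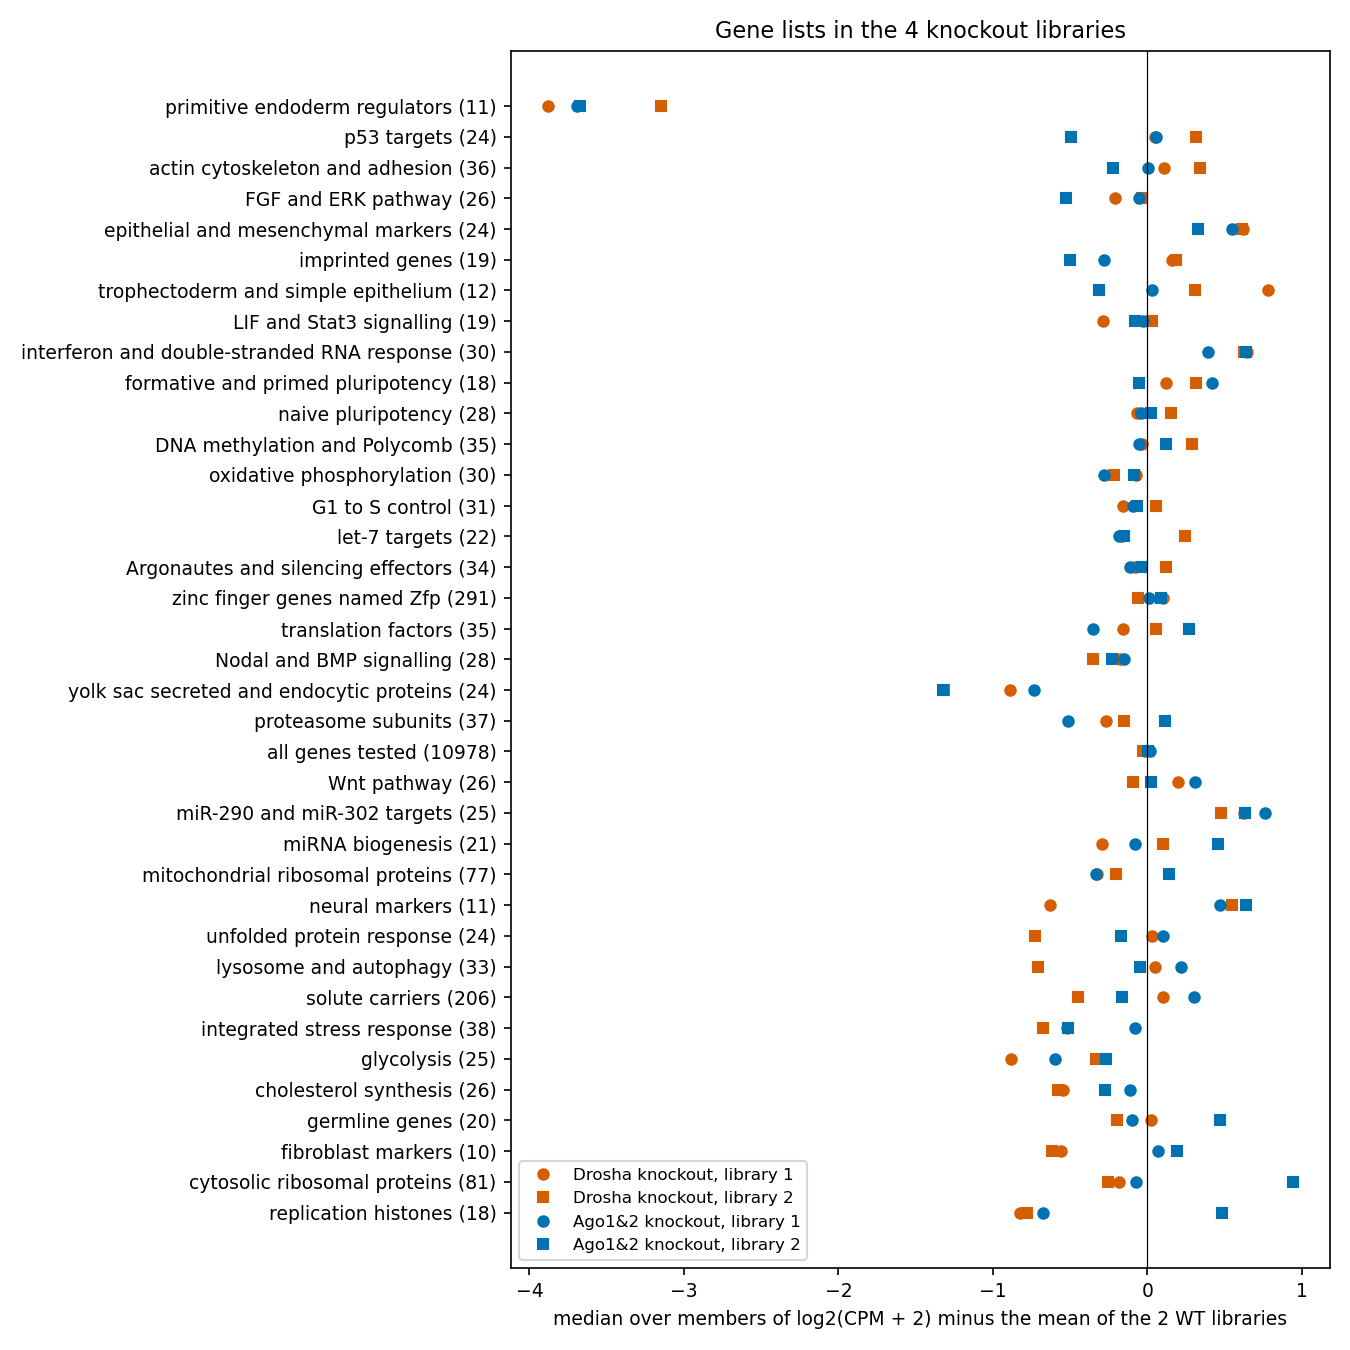
For each list with at least 10 genes tested (number in brackets), the median over its members of log2(CPM plus 2) minus the mean of both WT libraries, in each Drosha (orange) and Ago (blue) library, circles for library 1 and squares for library 2. Lists are ordered by the median difference between the knockouts; cytosolic ribosomal proteins and replication histones are high in the second Ago library alone, and primitive endoderm regulators are far under WT in all 4.

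Genes with and without sites for the miRNAs shown above were set side by side. A 3' UTR was known for 10812 tested genes, and a site was a match to the reverse complement of a seed on the mRNA strand, without regard to overlap with other sites. AGCACTT, the site of miR-294-3p and miR-302d-3p, stood in 1704 of them (15.8%). Against WT the median log2 of genes with this site was 0.13 in Drosha and 0.13 in Ago, beside -0.03 and 0.02 for genes without it. Between the knockouts, the medians were -0.01 with the site and -0.05 without. For the miR-17-5p site GCACTTT, in 13.4% of genes, they were 0.02 and -0.05, and for the miR-92a-3p site GTGCAAT, in 6.52%, they were 0.05 and -0.05. For the miR-19b-3p site TTTGCAC, in 12% of genes, they were 0.03 and -0.05. Drosha was on top for 18.6% of genes with the miR-17-5p site, 20.1% with the miR-92a-3p site and 19.4% with the miR-19b-3p site. Ago was on top for 13.5%, 14.9% and 13.5%, beside 15.7% of all genes tested for Drosha and 16.7% for Ago. With AGCACTT the shares were 17.4% for Drosha and 14% for Ago. For the let-7a-5p site CTACCTC, in 9.45%, the medians were -0.03 and -0.04, with Drosha on top for 16% and Ago for 16.5%.

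For the miRNAs made without Drosha the values were as follows. Genes with the miR-484 site GAGCCTG, 15.3% of those with a 3' UTR, had a median of -0.02 between Drosha and Ago, beside -0.05 without it. For the miR-877-5p site TCCTCTA, in 8.63%, the medians were -0.01 and -0.04. Drosha was on top for 16.6% of genes with the miR-484 site and 16.9% with the miR-877-5p site, and Ago for 16.4% and 16.2%. Of the called genes, 0 held AGCACTT, while the longest-coding transcript of Ago2 held the miR-17-5p, miR-19b-3p, let-7a-5p and miR-484 sites, that of Anxa3 the miR-92a-3p site and that of Parva the miR-877-5p site. The 25 known miR-290 and miR-302 targets had a median of 0.68 in Drosha and 0.75 in Ago against the shared WT libraries. Between the knockouts it was -0.07, and -0.22 to 0.11 with 1 of the 4 libraries left out. Drosha was on top for 4 members (16%) and Ago for 3 (12%), beside 15.7% and 16.7% of all genes tested, and 0 were called. In a knockout, 1 member had 3 counts or fewer. Lefty2, a Nodal antagonist among these targets, gave 104 and 34.1 CPM in Drosha, 223 and 157 CPM in Ago and 23.3 and 12.1 CPM in WT. These medians and shares, and those of the genes with and without sites, describe the genes and carry no test.

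By chromosome, the knockouts were close to each other. On the 20 chromosomes with at least 100 tested genes, medians of the log2 difference between Drosha and Ago ran from -0.12 to 0.05. Against WT, chromosome 1 had a median of -0.44 in Drosha and -0.44 in Ago, and chromosome 15 had 0.38 and 0.48. Both values rest on the shared WT libraries.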

How the data were processed

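The deposited table holds the authors' unnormalized read counts, 1 column per library and 1 line per gene. Trimmomatic, Bowtie2 and the builds mm10 (GRCm38) and dm6 are named, per the submitters' processing notes, without their roles. The counting tool, annotation and strand setting are not given in the sources used here. Columns were matched by library number. The Ago columns carry other replicate numbers than the Ago titles, and the titles' numbers are used here.

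Counts were fitted in R 4.3.3 with edgeR 4.0.16 (TMM scaling, filterByExpr, which removed 33 genes, quasi-likelihood F tests, 5 group means fitted to all 10 libraries, 5 residual degrees of freedom). Tests were 2-sided, with Benjamini-Hochberg adjustment over the 10978 genes and a threshold of 0.05. Dividing the size of a log2 fold change by the root of its F statistic gave the SE. CPM use the TMM-scaled totals; floors use raw totals and cover counting error only. The scripts were tested on simulated data. Alternatives included DESeq2 1.42.0, limma-voom (limma 3.58.1), other scalings and filters, thinning to 1754710 counts, and leaving out libraries.

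Gene positions, exon overlaps and 3' UTRs (of the transcript with the longest coding sequence) came from GENCODE M21. The libraries compared, the 41 gene lists and the seeds were chosen with earlier results of these data known. Named were the 5 targeted genes, up to 12 called genes per direction with at least 20 CPM in the higher knockout and no overlap, the 4 called genes per direction with the highest mean CPM, and per list up to 4 called members or the 2 with the smallest p. Genes with an adjusted p under 0.1 and other list members were chosen after their values were seen. An exact permutation test of 2 libraries against 2 cannot go below p = 0.333, so none was used for single genes. A list member is not reported here.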

Additional observations from a re-analysis of the deposited data

How the results depend on the processing

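In the comparison of Drosha with Ago (5 calls), 8 genes were called with at least 10 counts required in every library, 142 with DESeq2, 2 with limma-voom and 10 after thinning all libraries to the smallest total; leaving out 1 library gave 2 to 53. Against WT, the Drosha libraries (378 calls) had 972 with DESeq2, 111 with limma-voom and 1 to 514 with a library left out. The Ago libraries (316 calls) had 931 with DESeq2, 942 with limma-voom, 491 without the Dgcr8 libraries and 3 to 494 with a library left out. In both comparisons with WT the fewest calls came without the second WT library. A replicate block on the titles' numbers gave 45, 770 and 738 calls in these 3 comparisons. The titles' numbers are shared without any label that pairs the samples, and the column names number the Ago libraries otherwise. Deviations of Drosha and Ago libraries with the same number in their titles correlated at 0.163. The cause of these shifts was not tested. With total-count scaling 7 genes were called, and 5 with DESeq2 size factors in edgeR or, chosen after seeing the data, without the gene Creb5. Among uncalled genes, Nfib turned to 0.12 with limma-voom. With single libraries left out, log2 values of genes that changed sign ran from -0.74 to 0.68 for Nfib, -0.89 to 0.31 for Dicer1, -5.41 to 8.25 for Gata6, -3.99 to 0.33 for Dppa3, -0.15 to 0.27 for Pou5f1, -2.16 to 0.84 for Zscan4d and -0.0074 to 0.35 for Nanog. The Gata6 range comes from levels near the floor in the Drosha and Ago libraries and is no measure of a fold. Over all named genes and alternatives, 1945 values kept their direction and side of the threshold, 104 newly passed it, 16 no longer did and 11 changed direction. Those no longer passing belong to Ctcfl, Anxa3 and Parva, and most of the values that kept their side belong to uncalled genes. No called gene changed direction in any alternative that tested it. Depth limits the Drosha side, where genes under about 1.6 CPM cannot be told from 0.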

Other observations

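Creb5, a transcription factor gene on chromosome 6, took 3.94% of all counts of the second Ago library. It gave 2366 and 1709 CPM in the Drosha libraries, 4142 and 41088 CPM in the Ago libraries, and 4124 and 10055 CPM in the Dicer libraries. The difference between Drosha and Ago missed the threshold (log2 -3.47, SE 0.93, edgeR adjusted p = 0.25).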
